A study of Rattus norvegicus with 6 samples.

Results

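The EGF family of ligands, their ERBB receptors and the protease that frees the ligands were examined in H9c2 cells, a rat line that came from embryonic heart. The group held 10 genes of 26126 entries in the deposited count table: the ligand genes Hbegf, Areg, Ereg, Btc, Tgfa and Nrg1, the receptor genes Egfr, Erbb2 and Erbb3, and the sheddase gene Adam17. All 10 were found by gene symbol, and 9 had enough counts to be tested, Ereg being too low. The family was selected on knowledge of the differences between the adenovirus groups in this same table. Its differences between those groups are therefore given as a description, with the adjusted p as a place in the whole table and not as independent evidence.

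EGF family ligands are made as membrane-anchored precursors. ADAM metalloproteases, above all ADAM17, cut them loose, and the freed or anchored ligand joins 2 ERBB receptors into a dimer whose kinase domains start the RAS-ERK and PI3K-AKT cascades. EGFR binds HB-EGF, amphiregulin, epiregulin, betacellulin and TGF alpha, while ERBB3 binds neuregulins, has little kinase activity of its own and signals with ERBB2, which has no known ligand. In the heart, neuregulin-1 from endothelium acts on cardiomyocytes through ERBB4 and ERBB2, and HB-EGF is needed for normal valves and ventricles.

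The data were RNA-seq counts from 6 libraries, 3 of cells given a control adenovirus and 3 of cells labelled as given an adenovirus for PERK, an endoplasmic reticulum kinase encoded by Eif2ak3 that phosphorylates eIF2 alpha. All 6 went through simulated ischemia-reperfusion in an acidic buffer with lactate and 2-deoxyglucose, in a sealed chamber flushed with nitrogen and carbon dioxide, after culture in high-glucose medium with serum. H9c2 is a single cell line, the length of reperfusion and the dose of virus were not known here, and the labels do not state whether replicates were separate cultures, so p-values cover the spread among these libraries only, and that spread may be technical.

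Total counts ranged from 77923398 to 119087414, and values below are CPM on TMM-scaled library totals. Where 3 values stand together they run from replicate 1 to replicate 3. CPM is not corrected for gene length, so each gene is compared with itself across libraries and not with other genes. Small counts came in steps of about 6 (period 5.75 to 5.9 over the 6 libraries), for a reason not known here. A count may thus rest on fewer independent fragments than its size, and whether this holds for large counts was not tested. Eif2ak3 was 26.4, 26.9 and 24.0 CPM in the control libraries and 26.5, 26.5 and 26.0 CPM in the PERK-labelled ones, a log2 difference of 0.03 (SE 0.06). The targeted gene thus did not check the labels, which alone give the directions reported here. Markers of striated muscle summed to 736 to 762 CPM in the controls and 658 to 670 CPM under the PERK label, with Myog the 1 changed marker of 6 tested (log2 fold change -0.28, edgeR adjusted p = 0.0137). The lower sum lay mainly in Myog, which went from a mean of 486 to 400 CPM. Tnnt2 was at 169 and 173 CPM and Myod1 at 86.2 and 80.1 CPM, and 5 of the 6 lay below 0. Fibroblast markers summed to 29356 to 31227 and 30478 to 32639 CPM, and epithelial markers, nearly all from Krt8, to 38.96 to 40.9 and 40.95 to 41.8 CPM. Endothelial markers summed to at most 2.14 CPM and leukocyte markers to at most 12.3 CPM in any library. The adult cardiac gene Ryr2 had at most 3 counts in any library. The part of the lower muscle marker sum in the values of the family was not tested, and fewer cells of a type and less RNA per cell cannot be told apart in such libraries.

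One of the 9 tested family genes, Hbegf, rose in the PERK-labelled libraries, and none fell. Of all 14488 tested entries 61 passed an adjusted p of 0.05, which is 0.421%, and 45 of them, or 0.311%, were higher. The groups did not overlap for 2 of the 9, Hbegf and Areg, and the same holds for 18.2% of all tested entries. Of the 9 log2 fold changes 8 lay above 0, with a median of 0.13, against 7061 above 0 and a median of -0.0045 over all tested entries. Because the groups' difference was used to choose the family, nothing is read from these shares.

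**Figure D1:**
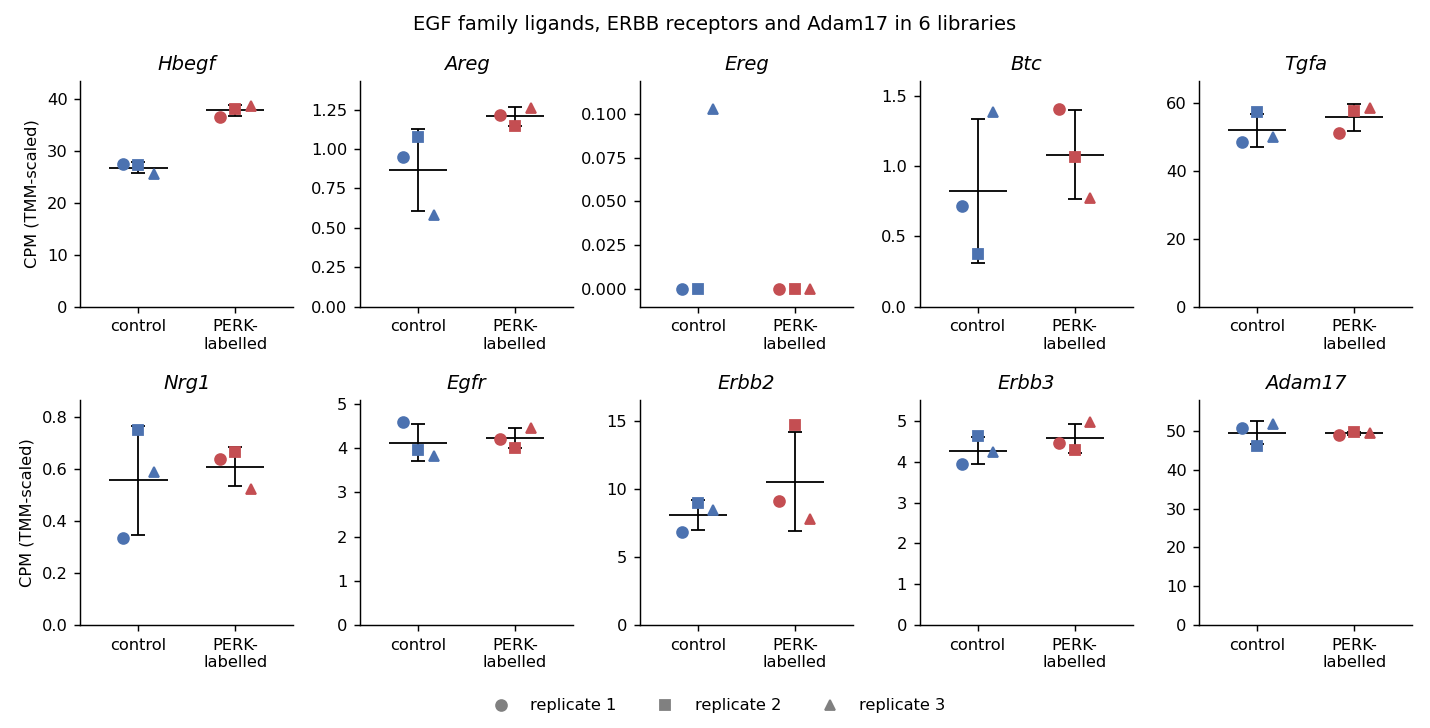
CPM (TMM-scaled) of each of the 10 family genes in the 3 control libraries (blue) and the 3 PERK-labelled libraries (red). Marker shapes give the replicate number, horizontal lines the group mean and bars the SD (none drawn for Ereg, which was 0 in 5 libraries). The groups are apart for Hbegf, where the control libraries sit at 25.6 to 27.5 and the PERK-labelled ones at 36.6 to 38.6 CPM, and narrowly for Areg, while 1 PERK-labelled library is high for Erbb2.

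Hbegf encodes HB-EGF, a heparin-binding ligand of EGFR and ERBB4. Its counts were 3040, 2259 and 1991 in the controls and 3614, 4561 and 3457 under the PERK label. On the CPM scale it stood at 27.5, 27.3 and 25.6 in the control libraries and at 36.6, 38.1 and 38.6 in the PERK-labelled ones. Every PERK-labelled library was higher than every control library, and the gap between the groups was larger than the spread within either. The mean went from 26.8 ± 1.06 to 37.8 ± 1.06 CPM (SD, n = 3 each), a 1.41-fold rise or 0.50 on the log2 scale (SE 0.05, 95% interval 0.39 to 0.61, edgeR adjusted p = 0.00917). Without PERK-labelled replicate 3 the log2 fold change was 0.48 with an adjusted p of 0.0512, and without any 1 of the other libraries the adjusted p ranged from 0.0213 to 0.0457. With the replicate number as a block the log2 fold change was 0.50 and the adjusted p 0.0691. The authors' deposited table gives Hbegf a log2 fold change of 0.50 with an adjusted p of 0.00512.

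Areg encodes amphiregulin, an EGFR ligand used in epithelial growth and tissue repair. It had few counts, at 0.949, 1.08 and 0.578 CPM in the controls and 1.21, 1.14 and 1.26 CPM under the PERK label. The PERK-labelled values lay close together and above all 3 controls, but control replicate 2 was within 0.07 CPM of the lowest of them, and the controls were widely spread because control replicate 3 was low. The log2 fold change was 0.47 (SE 0.28, 95% interval -0.17 to 1.12). This is near the estimate for Hbegf but with a much larger error, and it dropped to 0.25 without control replicate 3. The counts of Areg ran from 45 to 137, or 7.5 to 22.8 steps of 6 counts, and the interval holds both 0 and the log2 fold change of Hbegf. The authors' deposited table gives Areg 0.47 with an adjusted p of 0.601.

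Across the 6 libraries Areg and Hbegf had a Pearson correlation of 0.77 in log2 CPM, the highest of the 8 pairs with Hbegf. The other pairs with Hbegf ranged from -0.09 with Adam17 to 0.54 with Tgfa. With 6 libraries in 2 groups, these values mostly restate which genes differed between the groups, and all genes share each library's depth.

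Areg is shown with the 250 bases before its start, because of the 7 family genes with a promoter in the RefSeq table (GRCr8) it alone held a full cAMP response element (CRE, TGACGTCA), the palindrome bound by CREB and ATF factors. The element begins 91 bases before the start, and a TATA box (TATAAA, searched on the sense strand only) begins 61 bases before it. Both are in capitals below. A CRE was found in 1.59% and a TATA box in 8.06% of all 33469 windows of the same length. Among the tested entries with a window, the share with a CRE was 2.86%. A match is a stretch of letters and not a bound site.
Areg, chr14:17265642-17265891, minus strand: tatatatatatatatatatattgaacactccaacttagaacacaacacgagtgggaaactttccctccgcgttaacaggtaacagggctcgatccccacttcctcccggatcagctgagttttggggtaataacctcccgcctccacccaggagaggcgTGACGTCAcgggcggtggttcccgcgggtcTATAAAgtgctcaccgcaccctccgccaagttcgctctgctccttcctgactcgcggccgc

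Hbegf had no full CRE in its window but held 1 copy of the shorter CRE core (TGACG, either strand), which 18.2% of all windows hold, beginning 193 bases before the start. No match to the AP-1 site (TGANTCA), the EGR site (GCGNGGGCG), the CHOP-ATF4 core (TGATGNAA) or the CArG box bound by SRF was found in the windows of Hbegf, Areg, Btc, Tgfa, Egfr, Erbb2 or Adam17. Those motifs occur in 6.34%, 4.29%, 3.4% and 1.5% of all windows, and their absence says nothing of sites elsewhere. The motifs were searched on both strands unless stated, the core lies within the full CRE, and the motifs were chosen with the results known.

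Tgfa, which encodes TGF alpha, differed by less than the spread between replicates. It stood at 48.3, 57.3 and 49.9 CPM in the controls and at 51.0, 57.6 and 58.4 CPM under the PERK label. The groups overlapped, with control replicate 2 among the PERK-labelled values. The log2 fold change was 0.10 (SE 0.08, 95% interval -0.08 to 0.28), and it ranged from 0.054 without control replicate 1 to 0.18 without control replicate 2. With all 6 libraries its interval lies below the whole interval of Hbegf, although the difference between the ligands itself was not tested.

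Btc, which encodes betacellulin, a ligand of EGFR and ERBB4, was at 0.714, 0.375 and 1.39 CPM in the controls and 1.41, 1.07 and 0.771 CPM under the PERK label. The highest control library matched the highest PERK-labelled one, and the log2 fold change of 0.40 had an SE of 0.47. It moved from 0.05 without control replicate 2 to 0.98 without control replicate 3, so single libraries decided its size. Nrg1, the gene of neuregulin-1, was at 0.334, 0.75 and 0.591 CPM in the controls and 0.638, 0.669 and 0.525 CPM under the PERK label. Its log2 fold change was 0.13 with a 95% interval of -0.85 to 1.11, and it was -0.14 without control replicate 1. For both genes the interval was wide enough to hold the log2 fold change of Hbegf.

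Ereg, which encodes epiregulin, had 8 counts in control replicate 3 and 0 counts in the other 5 libraries, and it was not tested. With counts in steps of 6, the limit for a library at 0 was set at 18 counts, which is 0.15 to 0.201 CPM in the PERK-labelled libraries, and the 8 counts of control replicate 3 lie below the limit of that library (0.231 CPM). No fold is given, since both groups were under the limit. The authors' deposited table nevertheless lists Ereg with a log2 fold change of -4.07 (SE 1.33, adjusted p = 0.0761). Control replicate 3 had 19287 entries above 0 against 15377 to 16685 in the other libraries. The part of this in the counts of Ereg and of the other genes with few counts was not tested. Among the controls, Btc was highest in that library and Areg lowest.

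The remaining ligand genes of the family, which were listed from textbook knowledge, had few or no counts. Epgn, Nrg2, Nrg3 and Nrg4 had 0 counts in all 6 libraries, which allows up to 18 counts in each for counting error alone. The receptor gene Fgfr1, listed among other receptor tyrosine kinases, also had 0 counts in all 6. Whether such zeros reflect absent RNA or the annotation used was not tested. Egf had 0, 11 and 31 counts in the controls and 24, 24 and 13 under the PERK label, and its log2 fold change of 0.17 had an SE of 1.27. Areg, Btc, Ereg and Epgn are neighbours in the GRCr8 assembly, and of these Areg and Btc were tested and did not pass, while Ereg and Epgn had too few counts to be tested.

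**Figure D2:**
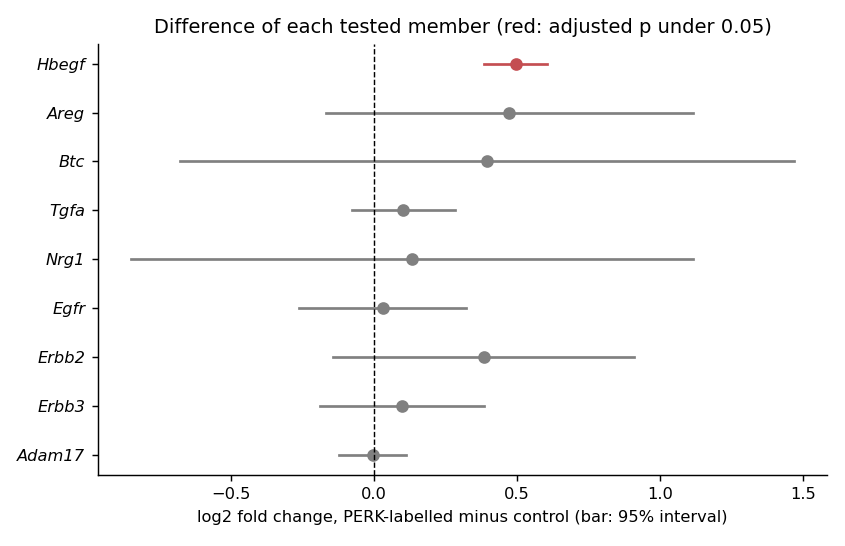
Log2 fold change of the 9 tested family genes (PERK-labelled minus control, points) with 95% intervals from the edgeR fit (bars). Hbegf, in red, had an adjusted p under 0.05. The intervals of Tgfa and Adam17 are narrow and near 0, while those of Areg, Btc and Nrg1 are wide.

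Of the receptors, Egfr and Erbb3 differed by less than the spread between replicates, and Erbb2 was high in 1 library. Egfr, the receptor of most ligands above, was at 4.59, 3.96 and 3.83 CPM in the controls and 4.21, 3.99 and 4.45 CPM under the PERK label, so the PERK-labelled values lay inside the control range. Its log2 fold change was 0.03 (SE 0.13, 95% interval -0.26 to 0.32). Erbb3 was at 3.96, 4.62 and 4.25 CPM and at 4.46, 4.30 and 4.97 CPM, overlapping as well, with a log2 fold change of 0.10 (SE 0.12, 95% interval -0.19 to 0.38) that ranged from 0.036 without PERK-labelled replicate 3 to 0.16 without control replicate 2. Erbb4, the cardiac neuregulin receptor, had 6, 0 and 8 counts in the controls and 7, 0 and 0 under the PERK label and was not tested.

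Erbb2 was at 6.85, 8.98 and 8.49 CPM in the controls and at 9.14, 14.7 and 7.84 CPM under the PERK label. PERK-labelled replicate 2 stood well above the other 5 libraries, and the other PERK-labelled values lay within or just above the control range. The log2 fold change was 0.38 with all libraries (SE 0.23, 95% interval -0.14 to 0.91) and 0.07 without that library. The neighbouring genes on the GRCr8 assembly, chosen after the values of Erbb2 were seen, showed no such peak in the same library. Stard3, Pgap3 and Mien1 were at 15.95, 2.58 and 10.99 CPM there, within or at most slightly above the control ranges of 14.4 to 16.2, 1.64 to 2.43 and 9.31 to 11.3 CPM.

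Adam17, the main sheddase of HB-EGF, amphiregulin and TGF alpha, had the smallest log2 fold change of the 9 with all 6 libraries in the fit. It was at 50.7, 46.1 and 51.8 CPM in the controls and 49.0, 49.8 and 49.4 CPM under the PERK label, and all PERK-labelled values lay inside the control range. The log2 fold change was -0.0039 (95% interval -0.12 to 0.11). Among the 8 tested family genes other than Hbegf, the edgeR adjusted p ranged from 0.571 to 0.987.

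Genes that act around the family were taken from lists of textbook knowledge. Beside the counts that follow, 11.2% of all tested entries had an unadjusted p under 0.05, and DESeq2 called 2.52% of the 14468 entries to which it gave an adjusted p. Of 11 tested genes for sheddases, their cofactors and the inhibitor TIMP3, 0 passed the test and DESeq2 called 0. The median log2 fold change was 0.06 against -0.0045 for all tested entries, 0 had an unadjusted p under 0.05, and Timp3 was at -0.19. The 2 with most counts, the metalloprotease genes Adam12 and Adam19, had log2 fold changes of 0.09 and 0.0054. Of 5 tested partners of HB-EGF at the cell surface 0 passed with edgeR (median 0.12, 2 with an unadjusted p under 0.05), and DESeq2 called 1. This was Cd44, the hyaluronan receptor whose heparan sulfate forms can hold HB-EGF, at 433 ± 10.8 CPM in the controls and 495 ± 19.7 CPM under the PERK label (log2 fold change 0.19, edgeR adjusted p = 0.0926, DESeq2 adjusted p = 8.3e-05). Gpc1, a heparan sulfate proteoglycan, had a log2 fold change of 0.0097. The tetraspanin gene Cd9, a partner of the HB-EGF precursor, had at most 7 counts in any library.

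The cascades below the receptors gave no called gene with edgeR. The list of brakes on ERBB receptors also took in Usp8 and Ubash3b, regulators of receptor turnover that are not plain brakes, at -0.0094 and -0.24. Of its 13 tested genes 0 passed (median -0.0094, 2 with an unadjusted p under 0.05 against 11.2% of all tested entries, DESeq2 0), with Socs5 and Ptpn12 at 0.05 and 0.17. Of 20 tested adaptors and RAS-ERK genes 0 passed with edgeR (median 0.04, 3 with an unadjusted p under 0.05) and 2 with DESeq2. The phosphatase gene Ptpn11 and the kinase gene Map2k2 were at -0.02 and 0.06. Of 13 tested genes of the PI3K-AKT and PLC gamma arm 0 passed (median 0.0016, 2 with an unadjusted p under 0.05, DESeq2 0), with Akt1 at -0.03 and Stat3 at 0.05.

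Among genes that growth factors induce, 5 of 27 tested rose and 0 fell, against 0.311% of all tested entries called higher. In the list 22 lay above 0 with a median log2 fold change of 0.27 against -0.0045 for all tested entries. The early transcription factor genes Fos and Egr1, the MAP kinase phosphatase genes Dusp1 and Dusp6 and the anti-proliferative gene Btg2 were the 5. Fos, the most changed of them, went from 12.97 ± 1.76 to 30.2 ± 0.742 CPM (SD, n = 3 each; log2 fold change 1.22, SE 0.09, edgeR adjusted p = 0.00322). Dusp6, which dephosphorylates ERK and is induced by it, was at 34.3, 33.9 and 29.9 CPM in the controls and 42.7, 46.4 and 44.3 CPM under the PERK label, with no overlap (log2 fold change 0.44, SE 0.06, edgeR adjusted p = 0.0286). Egr1 went from 14.8 ± 0.36 to 21.6 ± 0.915 CPM (log2 fold change 0.55, edgeR adjusted p = 0.0163). Leaving out control replicate 1 left 3 calls, leaving out any other library left 2, and so did the replicate block, and Fos and Btg2 passed in each of these fits. DESeq2 called 10 of the 27. The list was drawn up with the rise of several of its genes already known. Many stimuli induce these genes, and which stimulus acted here was not tested.

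**Figure D3:**
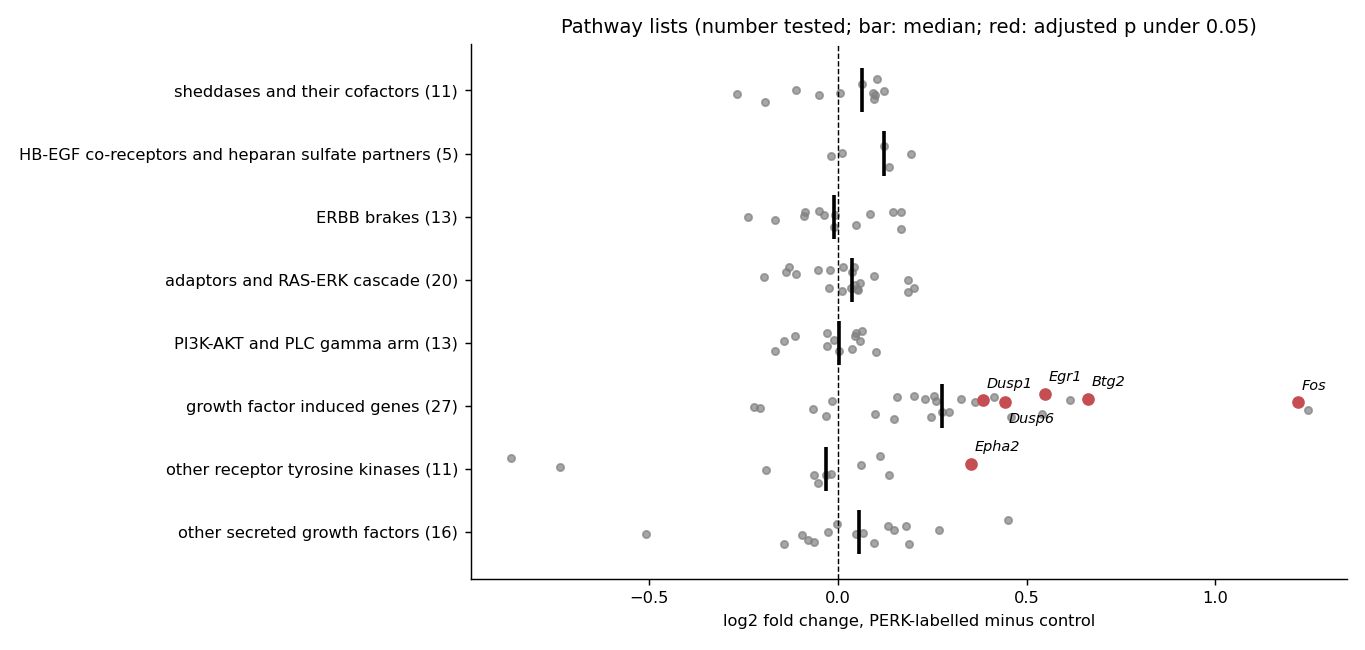
Log2 fold change (PERK-labelled minus control) of each tested gene of 8 pathway lists, with the number tested in brackets, the median as a black bar and genes with an edgeR adjusted p under 0.05 in red. The growth factor induced genes have a median of 0.27 and hold 5 of the 6 red points, and the lists of sheddases, brakes and cascade genes lie around 0.

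Other growth factor systems were set beside the family. Of 11 other receptor tyrosine kinase genes tested 1 rose with edgeR, against 0.311% of all tested entries called higher. In that list 2 had an unadjusted p under 0.05, against 11.2% of all tested entries, and DESeq2 called 2. The gene that rose was Epha2, an ephrin receptor, from 34.8 ± 1.42 to 44.5 ± 2.66 CPM (log2 fold change 0.35, SE 0.06, edgeR adjusted p = 0.0466). The call for Epha2 ended without any 1 library (adjusted p from 0.074 to 0.199). The median of that list was -0.03. Of 16 other secreted growth factor genes tested 0 passed with edgeR (median 0.06, 5 with an unadjusted p under 0.05 against 11.2% of all tested entries) and 1 with DESeq2, and Igf2 and Tgfb2 were at 0.07 and 0.05.

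The genes whose log2 CPM followed Hbegf most closely over the 6 libraries were Cyr61, Ap2a2, Actg1, Dusp1 and Ttc27, with Pearson correlations of 0.998, 0.997, 0.995, 0.995 and 0.992. They were ranked among 8898 genes with at least 5 CPM on average and an ordinary symbol, of which 303 had a correlation above 0.9. Cyr61, a secreted matrix protein, was at 156, 157 and 150.2 CPM in the controls and 191, 192 and 195 CPM under the PERK label (log2 fold change 0.32, edgeR adjusted p = 0.0137). Dusp1 was at 61.0, 59.8 and 59.5 CPM and at 76.5, 79.1 and 79.6 CPM (log2 fold change 0.38, edgeR adjusted p = 0.0137). Actg1, which encodes cytoplasmic gamma actin, had a log2 fold change of 0.22 (edgeR adjusted p = 0.0269). Ap2a2, a subunit of the clathrin adaptor AP-2, and Ttc27 were at 0.17 and 0.18 and did not pass (adjusted p of 0.0708 and 0.14). All 5 had groups that do not overlap, which the ranking itself favours.

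**Figure D4:**
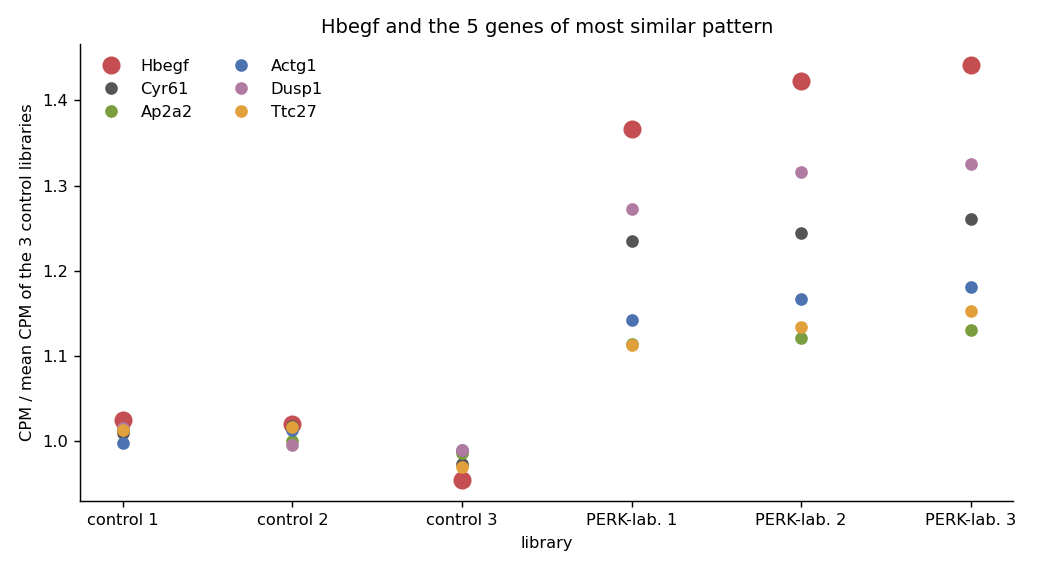
CPM of Hbegf (large red points) and of the 5 genes of most similar pattern in each library, divided by the gene's mean over the 3 control libraries. All 6 genes are higher in every PERK-labelled library than in every control library, and Hbegf shows the largest relative difference of the 6.

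The promoter window of Dusp1 is printed because Dusp1 is both a called growth factor induced gene and one of the 5 genes most like Hbegf. It holds a full CRE, beginning 124 bases before the start, and a further CRE core beginning 172 bases before it, both in capitals.
Dusp1, chr10:17184603-17184852, plus strand: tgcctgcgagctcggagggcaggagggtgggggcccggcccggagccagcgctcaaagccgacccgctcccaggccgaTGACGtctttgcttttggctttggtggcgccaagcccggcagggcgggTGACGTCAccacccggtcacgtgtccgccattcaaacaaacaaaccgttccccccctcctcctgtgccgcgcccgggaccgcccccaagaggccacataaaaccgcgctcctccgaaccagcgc

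Of the 6 called genes of the lists, 5 had a window in the table, and Dusp1, Btg2 and Epha2 each held 1 full CRE. The window of Egr1 held 2 CArG boxes, beginning 105 and 83 bases before the start, and 2 CRE cores, beginning 135 and 66 bases before it. Btg2 also held an EGR site 166 bases and Epha2 a further CRE core 244 bases before the start. The window of Dusp6 held none of the motifs searched. Among all tested entries with a window, 276 of 9654 held a CRE, or 2.86%.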

How the data were processed

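RNA-seq of 6 H9c2 libraries was analysed from the authors' deposited table, which gives whole-number counts per gene. Per the submitters' processing notes, Bowtie 0.12.2 and the mouse build mm9 were used; which program counted, and on which build with rat gene names, was not given in the sources used here (per the labels and file headers). The authors' deposited table also holds log2 fold changes, their standard errors and adjusted p-values, quoted only where named. A second table has 6 columns matching no label and was not used.

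Counts were fitted in edgeR 4.0.16 (R 4.3.3) with TMM scaling, filterByExpr (minimum count 10), a quasi-likelihood fit on group alone, glmQLFTest and Benjamini-Hochberg adjustment at 0.05 over all 14488 tested entries. Log2 fold changes are PERK-labelled minus control. SEs came from the fold change and F statistic, and 95% intervals from the t distribution of that fit. Correlations used log2 CPM with a prior count of 2. The edgeR fit alone was tested on simulated counts with known fold changes.

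Members and lists were chosen with earlier results of these data known. Named by rule were all members, each called gene of the lists, otherwise the 2 listed genes with most counts, and the 5 genes most like Hbegf. Cd9, Ryr2 and the neighbours of Erbb2 were added after their values were seen. Other named genes, such as Timp3, Usp8, Ubash3b, Fgfr1, Erbb4 and single markers, also lie outside the rule. Promoter windows came from RefSeq (GRCr8), matched by symbol for 7 of 10 members. DESeq2 1.42.0 and other settings served as alternatives. Limits cover counting error only.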

Additional observations from a re-analysis of the deposited data

How the results depend on the processing

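The 61 calls over all entries became 365 with DESeq2, 94 without a filter, 132 with robust dispersion, 93 with counts divided by 6 and 9 with the replicate block, and 12 to 38 with 1 library left out. Higher calls made up 73.8% of the 61, 62.7% of the DESeq2 calls and 52.2% to 71.4% after leaving out 1 library. The 1 called family gene, Hbegf, became 0 with the replicate block and 0 to 1 with 1 library left out, its log2 fold change staying between 0.46 and 0.52. The cause of these lost calls was not tested. Deviations from the group means correlated at -0.063, 0.011 and 0.029 between same-numbered libraries, and no control library correlated best with its own number. With 3 libraries per group, these values cannot show whether the replicate numbers mark pairs, and the labels do not state it. With the block, growth factor induced calls went from 5 to 2 and other receptor tyrosine kinases from 1 to 0; leaving out 1 library gave 2 to 3 and 0 to 0. DESeq2 gave 10 and 2 for these lists, 1 for HB-EGF partners (also 1 with robust dispersion), 2 for adaptors and RAS-ERK genes and 1 for other secreted growth factors. The sign of Adam17 turned without a filter (0.00040), and with 1 library left out its range was -0.054 to 0.029. Ranges that crossed 0 were also found for Nrg1 (-0.14 to 0.40), Egfr (-0.019 to 0.11), Egf (-0.43 to 1.58), Eif2ak3 (-0.020 to 0.060), Adam19 (-0.024 to 0.045) and Gpc1 (-0.0098 to 0.036), none of them called. Areg, Btc, Nrg1, Egf and Ereg had few counts, and the part of depth in their wide intervals was not tested.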

Other observations

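Among the 45 entries that were higher in the PERK-labelled libraries, 36 had a promoter window and 4 of these held a full CRE (11.1%, against 2.86% of all tested entries with a window): Ppp1r15a, which encodes the eIF2 alpha phosphatase subunit GADD34, Btg2, Dusp1 and Epha2. Btg2, Dusp1 and Epha2 are also the called list genes described above, so this share is not separate from their matches. With 1 library left out, Dusp1 passed only without control replicate 1 (edgeR adjusted p = 0.0412, otherwise 0.0578 to 0.0683). Epha2 passed in none of these fits. Of the 16 lower entries 9 had a window and 0 held one, but 9 windows are too few to set beside the higher entries. A share of 4 in 36 also rests on few genes. The motif was looked for after the results were known, and these shares are given as a description.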
